A study of Mus musculus with 11 samples.

Results

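RNA from wild-type (WT) mouse embryonic stem cells (ESCs), the self-renewing cells of the early embryo, was sequenced after polyA selection in one experiment and after removal of ribosomal RNA in another. The 3 polyA libraries were compared here with the 2 ribodepleted libraries of untreated WT cells, and every gene with a mean TPM over 1 across these 5 libraries was included, which gave 12478 of the 23284 genes in the files. TPM is the share of a library's transcripts that a gene takes, corrected for its length and scaled to the same total in each library. The series holds 11 libraries in all. The other 6 are ribodepleted libraries of WT cells treated for 4 h with 10 µg/ml α-amanitin, and of Tet1/2/3 triple knockout (TKO) cells with and without that treatment, and they appear below only as values beside the shares of RNA classes.

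Both groups were WT ESCs described as grown on gelatin in medium with 15% serum and leukemia inhibitory factor, and no feeder cells were mentioned. The polyA group carried no treatment and was prepared with a stranded mRNA kit that includes the polyA selection. The ribodepleted group was the untreated 0 h control of the α-amanitin experiment and was sequenced as strand-specific paired reads of 150 bases. The study describes the libraries of the α-amanitin experiment as biological duplicates, and for the polyA libraries no source used here says whether they came from separate cultures, so p-values measure the spread between these libraries, which may be technical in that group. Selection, kit, sequencing run, culture and possibly the WT line all differ between the groups together, so the part of each cannot be told apart.

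Most messenger RNAs are cleaved about a signal hexamer, usually AATAAA, and receive a poly(A) tail, and it is this tail that oligo(dT) binds during polyA selection. Several abundant RNAs end in another way. Replication-dependent histone mRNAs end just after a conserved stem-loop that is bound by the protein Slbp, and the RNAs of ribonucleases P and MRP, telomerase RNA, small nucleolar RNAs (snoRNAs), Cajal body RNAs and microRNA hairpins are made without a stable tail. SnoRNAs guide modification of other RNAs, box C/D members directing ribose methylation and box H/ACA members directing pseudouridylation, and most of them are cut out of introns of host genes.

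Of the 12478 genes, 11639 had a mean above 1 TPM in each group, 485 passed only through the polyA libraries and 354 only through the ribodepleted libraries, and 29 had 0 reads in all polyA libraries and 4 in both ribodepleted libraries. By RefSeq type, 11710 were coding, 306 lncRNA, 194 microRNA and 98 snoRNA genes. Mir568 lay just inside the limit (mean 1.0008 TPM) and Acsbg2 just outside it (0.99995).

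The libraries of a group were close to each other. The recovered read totals, computed from the steps of the TPM values, were 72653715, 73405817 and 82144990 for the polyA libraries and 27466109 and 27261887 for the ribodepleted libraries. They count reads assigned to genes, apart from a factor per gene, and not all reads sequenced. With fewer such reads, low values are less precise in the ribodepleted group. Pearson's r across genes on the log2 scale was at least 0.9969 between libraries of a group, against 0.883 between the 2 group means, which describes these libraries since genes are not independent replicates.

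The 2 groups also differed in genes of the Y chromosome. Uty, a histone demethylase gene of the Y chromosome (chrY:433304-582202, mm9), had 0.041, 0.040 and 0.032 scaled TPM in the polyA libraries and 30.9 and 28.2 in the ribodepleted libraries. Eif2s3y, a translation initiation factor gene, had 0.78, 0.82 and 1.10 against 61.1 and 56.3 scaled TPM. The 3 tested Y-linked genes, Eif2s3y, Ddx3y and Uty, were all lower in the polyA libraries, with log2 differences of -4.98 to -4.28. Their part in the other differences was not tested, and a smaller number of cells carrying the Y chromosome cannot be told apart from less RNA per cell. Xist, the RNA of the inactive X chromosome, stayed below the filter, with deposited values of 0.09, 0.10 and 0.09 TPM in the polyA libraries and 0.01 and 0.08 in the ribodepleted libraries.

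Markers of ESC identity were present in all 5 libraries, at unequal levels. Pou5f1, a transcription factor that defines pluripotent cells, had 1829, 1779 and 1914 scaled TPM in the polyA libraries and 1184 and 1252 in the ribodepleted libraries, a log2 difference of 0.60 ± 0.05 (SE; limma, adjusted p = 7.71e-06) that just passed the 1.5-fold limit and fell below it, at 0.55, without ribodepleted replicate 1 and, at 0.57, without polyA replicate 3. Of the 8 markers on the list, Pou5f1, Klf4 (0.61), Tdgf1 (1.47) and Dppa5a (2.27) were higher in the polyA libraries and Zfp42 was lower (-1.65). Nanog was at 28.6, 30.1 and 31.1 against 41.1 and 39.3 scaled TPM, which did not reach the fold limit. Without ribodepleted replicate 1, the Klf4 difference was 0.58 and was no longer called.

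Of 14 markers of cells leaving pluripotency, 8 passed the filter. Sox1, Eomes and Gata6 were higher and Nes and Pax6 were lower in the polyA libraries. Of 10 fibroblast markers 5 passed the filter, Acta2 being lower (4.29 ± 0.51 against 51.1 ± 11.8 scaled TPM, mean ± SD, n = 3 and 2) and Thy1 higher, while Col3a1, Dcn, Lum, Pdgfra and Postn stayed below it. Their part in the differences between RNA classes was not tested.

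A gene was called when its limma adjusted p was under 0.05 and its difference exceeded 1.5-fold after adding 1 to the scaled TPM, a step that makes differences of genes near 0 look smaller than they are. By this rule the polyA libraries were higher in 2341 genes (18.8%) and lower in 2042 (16.4%), 35.1% in all. The median difference over all tested genes was -0.01. In 43.2% of the tested genes every polyA library lay above every ribodepleted library, and in 43.9% every one lay below, so separation of the 2 groups alone was common. The extremes were one-sided. Among called genes, 296 were lower by over 4-fold in the polyA libraries and 135 were higher by over 4-fold. Of the 296, 227 (76.7%) belonged to the replication-dependent histones, the small and structured RNAs or the microRNA hairpins. These classes were a small part of the 12478 tested genes, the hairpins being the largest at 198. Beyond 16-fold, 126 were lower, 121 of them in those classes, and 3 were higher. Many members passed the filter only through the ribodepleted libraries, which by itself favours lower polyA values. Means exceeded 1 TPM in both groups for 36 of 61 histones, 51 of 61 box C/D snoRNAs and 77 of 198 hairpins. Their medians were -8.0, -1.81 and -0.81. How far the filter made the extremes one-sided was not tested.

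**Figure D1:**
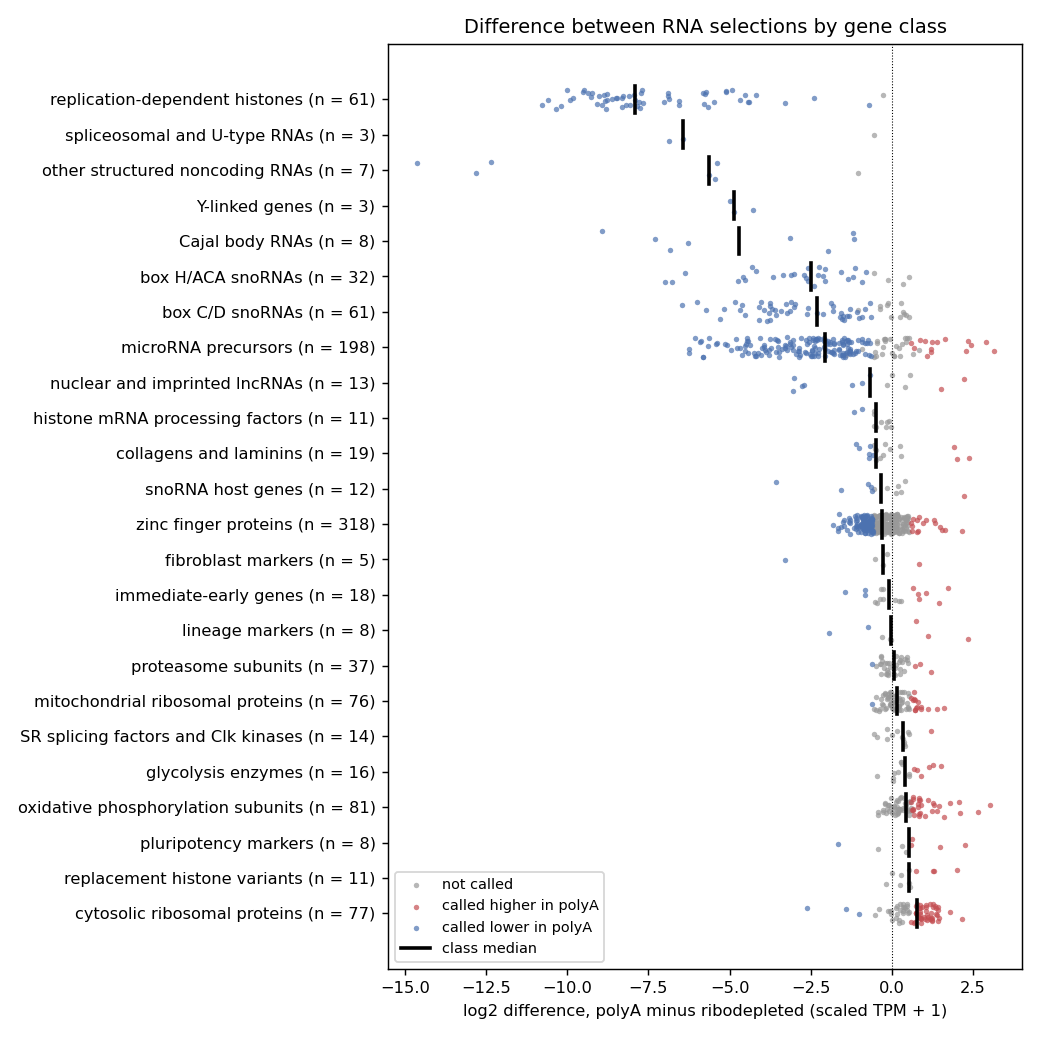
Log2 difference (polyA minus ribodepleted, log2(scaled TPM + 1) scale, x axis) of each tested gene of each RNA class (rows), with points coloured by call, a black bar at the class median and a dotted line at 0. Histones, structured RNAs, snoRNAs and microRNA hairpins lie mostly to the left of 0, and ribosomal protein and respiratory chain genes mostly to its right.

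The replication-dependent histone genes were far lower in the polyA libraries. These genes supply the core and linker histones that package newly replicated DNA. Of 68 in the files 61 were tested, and 60 of those were lower in the polyA libraries, against 16.4% of all tested genes, with a median difference of -7.91. In only 36 of the 61 did the mean exceed 1 TPM in both groups, and the median over those 36 was -8.0. All 5 histone classes took part. The median was -8.63 over 6 H1 genes, -6.19 over 14 H2A genes, -8.18 over 17 H2B genes, -7.83 over 12 H3 genes and -8.55 over 12 H4 genes.

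Hist1h4d, an H4 gene (chr13:23673467-23673859, mm9), had 2.33, 3.04 and 2.44 scaled TPM in the polyA libraries and 5356 and 5653 in the ribodepleted libraries. The difference was -10.58 ± 0.08 (SE; limma, adjusted p = 5.65e-12), a ratio of the means of 2116. Hist2h2bb, an H2B gene, had 1.04, 1.71 and 1.73 against 4232 and 4403 scaled TPM. The groups lay far apart in both genes. H4 genes differ little in coding sequence, so reads may be divided among copies and the value of a single H4 gene is uncertain.

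Together the replication-dependent histones took 0.0157%, 0.0161% and 0.0149% of the TPM in the polyA libraries and 5.16% and 5.35% in the ribodepleted libraries. The exact two-sided permutation test over libraries gave p = 0.2, the smallest value that 3 against 2 libraries can give, as it did for all but 1 of the 26 shares tested. In the other 6 ribodepleted libraries the histone share lay between 3.69% and 4.54%, far nearer to the ribodepleted WT libraries than to the polyA libraries.

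The end of these mRNAs was read from the mm9 genome, since it is the feature by which they are set apart. Within 300 bases after the stop codon on the sense strand, the letters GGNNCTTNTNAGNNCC were found in 60 of 66 histone genes with an annotated coding end (90.9%) and in 7 of 20041 other genes (0.0349%), or 0.333% of all 20107 genes. On the opposite strand of the same windows they were found in 7 genes. In histones the match began 22 to 59 bases after the stop codon. Of the matches, 36 read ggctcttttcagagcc, 9 read ggctcttttaagagcc and 8 read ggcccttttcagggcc. The stem-loops of 3 histones and of H2afx are printed with 7 bases on each side and the motif in capitals, because their genes behaved differently.
Hist1h4d (chr13:23673812-23673841, plus strand): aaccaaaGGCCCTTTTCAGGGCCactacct
Hist1h1c (chr13:23831374-23831403, plus strand): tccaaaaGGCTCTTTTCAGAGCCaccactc
Hist2h3c1 (chr3:96051243-96051272, plus strand): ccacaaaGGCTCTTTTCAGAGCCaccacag
H2afx (chr9:44143316-44143345, plus strand): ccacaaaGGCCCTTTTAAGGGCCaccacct

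All 55 tested histones with the motif were lower in the polyA libraries, with a median of -8.06. Of the 4 tested histones with a window but no match, 3 were lower, Hist2h2bb among them, and the exception was Hist2h2be. Other tested genes with the motif were too few to show whether it goes with low polyA values. H2afx, the replacement variant that is phosphorylated at DNA breaks and is known to give both stem-loop and polyadenylated mRNA, had 480, 473 and 479 scaled TPM in the polyA libraries and 418 and 553 in the ribodepleted libraries, overlapping values with a difference of -0.01 ± 0.10. Of the 5 tested genes outside the histone list that hold the motif, Bst2 and Nova2 were higher, Cdr2l was lower, and H2afx and Snrpa were not called. The matches of Snrpa, Nova2 and Cdr2l began 76, 182 and 265 bases after the stop codon, outside the range seen in histones. The letters searched for also do not require the stem to pair, so such matches need not be stem-loops.

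Medians of histones also differed by whether the annotated transcript holds a poly(A) signal, with wide overlap. The last 50 bases of the longest annotated coding transcript held AATAAA in 11 tested histones, 10 of them lower, with a median of -5.11. Their differences ranged from -8.76 (Hist1h4a) to -0.28 (Hist2h2be). The same bases held the variant ATTAAA in 4, with a median of -5.99, and neither in 36, with a median of -8.31 and a range of -10.77 to -4.44. A further 10 had no annotated end and a median of -6.96. With 1 TPM added, a gene at a low ribodepleted level cannot show a large drop. Expression level was not compared between these sets, so its part in their medians was not tested. Among other coding genes the signal showed no such split. It was present in 7273 of them (63.7%), whose median was 0.02, against 0.00 over 1702 genes with the variant and 0.00 over 2438 genes with neither. A hexamer in an annotated end is a description of the annotation, not a site shown to be used.

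The signals of the 3 histones below are printed in capitals, as they belong to the genes with the smallest differences and to the linker histone that is most abundant among those with a signal.
Hist2h2be (chr3:96027628-96027657, plus strand): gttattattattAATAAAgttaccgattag
Hist2h3c1 (chr3:96052398-96052427, plus strand): ttttttaatcccAATAAAaatttaacacac
Hist1h1c (chr13:23832199-23832228, plus strand): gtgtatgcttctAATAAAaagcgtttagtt

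Hist2h2be, an H2B gene (chr3:96025044-96027661, mm9) with AATAAA and no stem-loop match, had 1.73, 1.67 and 1.92 scaled TPM in the polyA libraries and 2.26 and 2.48 in the ribodepleted libraries. The groups did not overlap, yet the difference of -0.28 was under the fold limit. Hist2h3c1, an H3 gene with both features, had 1.86, 2.07 and 2.60 against 4.69 and 3.59 scaled TPM, a difference of -0.69 that fell to -0.55, and was no longer called, without ribodepleted replicate 1. With a pseudocount of 5 TPM it was -0.35. Both genes were expressed at a few TPM at most, so little weight rests on either. Hist1h1c, a linker histone with both features, had 11.4, 12.8 and 12.8 against 694 and 735 scaled TPM, lower, with a log2 difference of -5.75, although its polyA level was the highest of these 3.

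**Figure D2:**
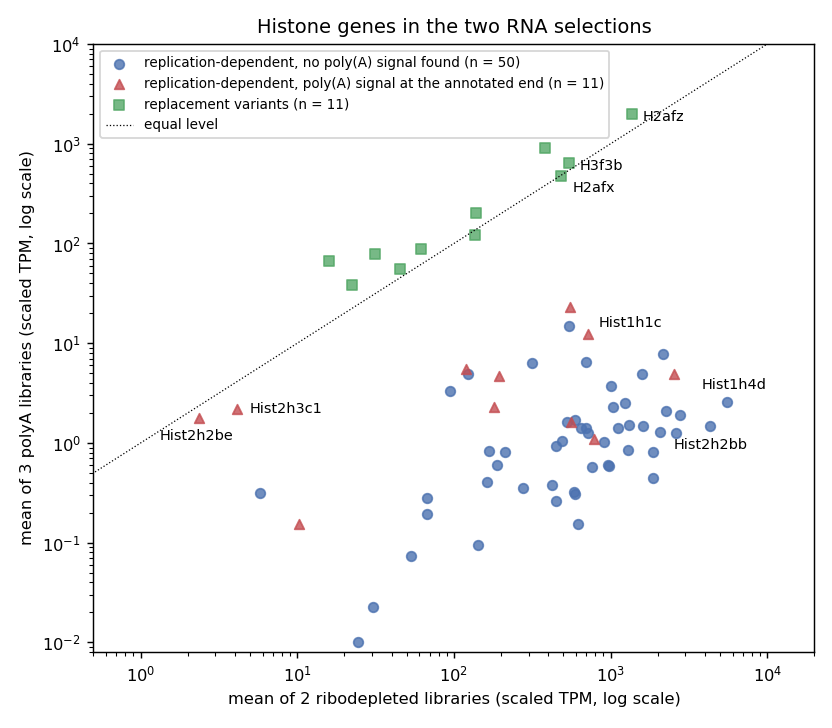
Mean scaled TPM in the 2 ribodepleted libraries (x axis) and in the 3 polyA libraries (y axis), both log axes, of the 61 tested replication-dependent histones, marked by whether AATAAA lies in the last 50 bases of the annotated transcript, and of the 11 replacement variants; means below 0.01 are drawn at 0.01, and the 50 genes with no signal found include the 4 with ATTAAA and the 10 with no annotated end. Nearly all replication-dependent histones lie far below the line of equal levels, Hist2h2be and Hist2h3c1 lie near it, and the replacement variants lie along or above it.

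The replacement histone variants, which are made throughout the cell cycle from polyadenylated mRNAs, did not share this pattern. Of the 11 tested, the polyA libraries were higher in 4 and lower in 0, beside 18.8% higher and 16.4% lower over all tested genes, and the median was 0.54. H3f3a, which encodes H3.3, had 910, 877 and 946 against 375 and 383 scaled TPM (1.26), and the linker variant H1fx had 67.3, 65.5 and 68.1 against 15.8 and 16 (2.01). H1f0 (1.30) and H2afy2 (0.75) were the others. H3f3b and H2afz were not called. Of 11 factors that process histone mRNA, only Zfp473 (-1.15) and Casp8ap2 (-0.93) were called lower (18.2%). All 11 differences were negative, with a median of -0.50. In 9 of the 11 every polyA library lay below every ribodepleted library, against 43.9% of all tested genes. Slbp itself was at 160, 157 and 169 against 169 and 173 scaled TPM, overlapping values with a difference of -0.07.

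The RNA subunits of ribonucleases accounted for the largest single differences. Rmrp, the RNA of ribonuclease MRP, which cuts the precursor of ribosomal RNA, had 1.17, 1.53 and 1.47 scaled TPM in the polyA libraries and 57560 and 63437 in the ribodepleted libraries. Its difference was -14.63 ± 0.07 (SE; limma, adjusted p = 9.41e-13), with a ratio of the means of 43462. Rpph1, the RNA of ribonuclease P, which trims transfer RNA precursors, had 12.6, 7.95 and 9.36 against 74633 and 79306 scaled TPM (-12.80). Together they took 0.0012% of the TPM in the polyA libraries and 13.2% ± 0.35 (SD, n = 2) in the ribodepleted libraries, and between 12.2% and 14.7% in the other ribodepleted libraries.

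Because TPM divides by length, the weight of such short RNAs is far smaller in reads. As a share of recovered reads, Rmrp and Rpph1 took 2.07% in the ribodepleted libraries, the small and structured RNAs together 2.26% and the histones 1.39%, whereas of the TPM the small and structured RNAs took 15.7% and the histones 5.25%. In the polyA libraries the small and structured RNAs took 0.0184% of the reads and the histones 0.0055%. Sequence copies add uncertainty here too. Rprl3 and Rprl2, which share sequence with Rpph1, had 0 reads in all polyA libraries, and against a floor of 3 reads over the group they were at least 44735-fold and 426-fold lower there.

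Other RNAs of the group were mostly lower too. Only 3 of the 7 tested structured RNAs and 1 of the 3 U-type RNAs exceeded 1 TPM in both groups. The others passed the filter only by being high in the ribodepleted libraries, so their calls describe detectable RNAs and support nothing beyond them. Terc, the template RNA of telomerase, had 8.40, 8.70 and 6.82 against 331 and 452 scaled TPM (-5.44). Vaultrc5, the RNA of vault particles, was lower too (-5.39). Bc1, a neuronal RNA with an internal A-rich stretch, was the 1 of 7 tested structured RNAs that was not called (-1.03). The U-type list was set by symbol alone. Only 2 of all tested genes were of RefSeq type snRNA (small nuclear RNA), so not all 3 on the list carry that type. Of these 3 RNAs, Rnu11 was lower (-6.44). Rnu12, of the minor spliceosome, had 1 read over the polyA libraries and 508 over the ribodepleted libraries, a ratio of 2033 with a 95% exact interval of 363 to 80474 that covers counting error only. Rnu73b, placed on the list by its symbol, had 82.9, 95.8 and 85.3 against 123 and 134 scaled TPM (-0.54), which was not called. Leaving out polyA replicate 2 or ribodepleted replicate 1 made it a call, at -0.59 and -0.61. Rn45s, which holds the ribosomal RNA precursor, was on no list and is given after its values were seen: 4.87, 5.32 and 4.96 against 134 and 147 scaled TPM (-4.55), in files from which reads matching ribosomal RNA had been removed.

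**Figure D3:**
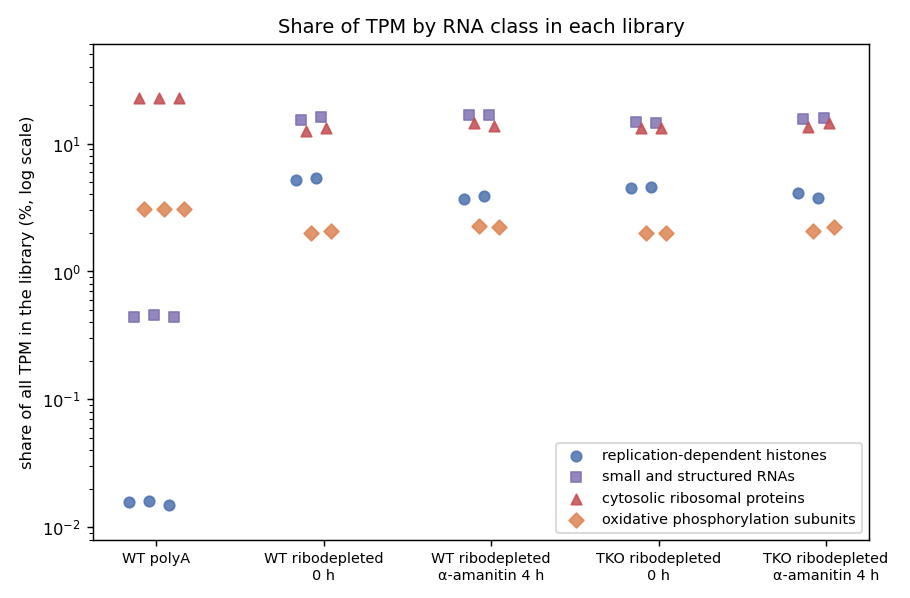
Share of the deposited TPM (percent, log axis) taken by 4 RNA classes in each of the 11 libraries (1 point per library and class, columns by group). Histones and small and structured RNAs take a far larger share in every ribodepleted library than in the 3 polyA libraries, and cytosolic ribosomal protein mRNAs a larger share in the polyA libraries.

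SnoRNAs were lower in the polyA libraries as a class, but over a wide range. The counts below stand beside 16.4% lower and 18.8% higher over all tested genes. Of 69 box C/D snoRNAs in the files 61 were tested, and 49 were lower and 0 higher, with a median of -2.29. Of 36 box H/ACA snoRNAs 32 were tested, and 28 were lower and 0 higher, with a median of -2.49. All 8 tested Cajal body RNAs, which guide modification of spliceosomal RNAs, were lower, from -1.15 for Scarna3a to -8.92 for Scarna2. Restricting the box C/D class to the 51 members above 1 TPM in both groups gave a median of -1.81. Lengths implied by the deposited values for these short genes were not those of the annotation used here, so their levels are compared only between libraries, never with each other.

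The 2 box C/D snoRNAs Snord34 and Snord96a, at or near opposite ends of the class, illustrate the range. Their mm9 sequences at the annotated position are printed in full, with the C box and D box in capitals.
Snord34 (chr7:52381971-52382040, minus strand): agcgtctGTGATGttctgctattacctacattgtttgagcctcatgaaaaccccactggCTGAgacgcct
Snord96a (chr11:48615534-48615614, plus strand): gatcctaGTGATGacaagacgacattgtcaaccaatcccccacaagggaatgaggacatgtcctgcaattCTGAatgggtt

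Snord34, which overlaps Rpl13a, had 1 read over the 3 polyA libraries and 178 over the 2 ribodepleted libraries, a ratio of 713 with a 95% exact interval of 126 to 28299. Snord96a, which overlaps Gnb2l1, had 600, 585 and 682 scaled TPM in the polyA libraries and 452 and 502 in the ribodepleted libraries. No library of one group reached the other, but the difference of 0.38 was not called. Their host genes differed little from each other, Rpl13a at -0.53 and Gnb2l1 at -0.48, neither called. Rpl13a became a call, at -0.61, without ribodepleted replicate 1, and with quantile normalization both were called lower, Rpl13a at -0.97 and Gnb2l1 at -0.82.

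Snora68 had 5.49, 2.69 and 4.85 against 509 and 623 scaled TPM (-6.76). Snora78 (-6.99) lies in Snhg9, a host gene that was itself lower (-3.56). Snora74a (-6.39) and Snord17 (-5.99) were lower as well. Of the 12 box C/D members that were not called, Snord64 had 501, 503 and 370 against 359 and 314 scaled TPM (0.43), and without polyA replicate 3 it was called, at 0.59.

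Intronic small RNAs were also set beside their host genes. For box C/D snoRNAs, 31 pairs with 24 hosts had a median of -3.00 for the small RNA and -0.10 for the host, and the small RNA lay below its host in 27. For box H/ACA snoRNAs, 18 pairs with 17 hosts had medians of -2.63 and 0.25, with 16 below. For microRNA hairpins, 67 pairs with 46 hosts had medians of -2.08 and -0.13, with 56 below. The 5 Cajal body RNAs with an intronic position all lay below their hosts. Pairs that share a host are not independent. Many of the hairpins, and some of the snoRNAs, passed the filter only through the ribodepleted libraries, so the counts below the host describe the detectable small RNAs and support nothing beyond them.

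**Figure D4:**
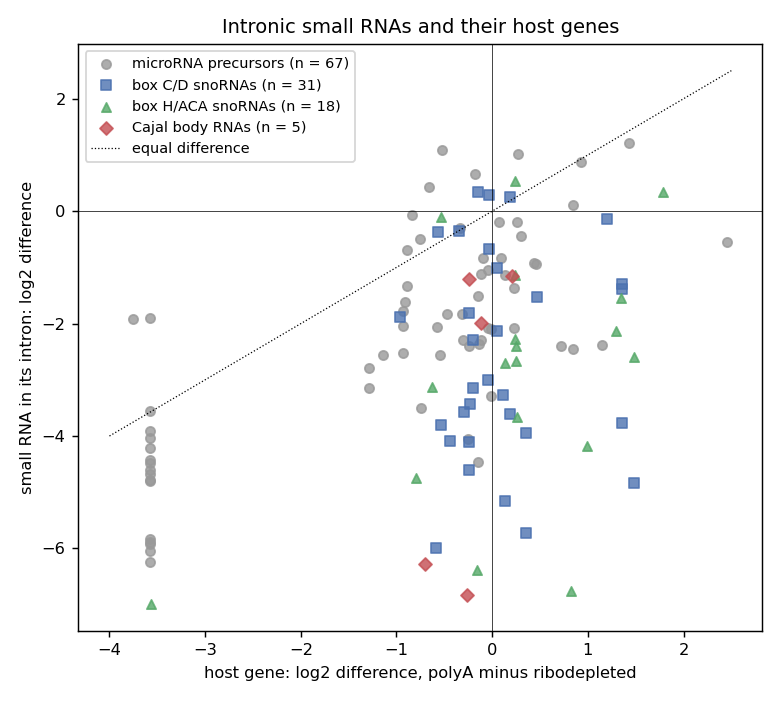
Log2 difference (polyA minus ribodepleted) of each intronic small RNA (y axis) against that of its host gene (x axis), by class, with the line of equal differences. Most points lie below the line, and the column of points at -3.57 on the x axis holds the hairpins of Sfmbt2.

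Neither position nor length went with the size of the difference in a steady way. Medians for box C/D snoRNAs were -2.65 over 32 in introns and -3.23 over 17 that overlapped an annotated exon, and for box H/ACA snoRNAs -2.59 over 19 and -2.06 over 11. Over snoRNAs and Cajal body RNAs together, the median was -3.14 below 80 bases (n = 27), -2.21 from 80 to 120 bases (n = 22), -2.24 from 120 to 140 bases (n = 27) and -5.72 from 140 bases (n = 13, all lower). The longest bin also had the most ribodepleted reads, a median of 1503 against 178, 87.5 and 432 in the shorter bins.

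The spliced snoRNA host genes, noncoding RNAs that carry snoRNAs in their introns, differed among themselves. Of 12 tested, 5 were lower (41.7%) and 1 was higher (8.33%), with a median of -0.35, beside 16.4% lower and 18.8% higher over all tested genes. Snhg1 had 721, 723 and 727 against 674 and 657 scaled TPM (0.12) and Snhg3 407, 421 and 403 against 335 and 336 (0.29), and neither was called. Gas5, a growth arrest RNA, was lower, at 222, 230 and 223 against 342 and 347 (-0.61), although this was not called with deposited TPM (-0.51). Snhg11 was the 1 higher (2.21).

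MicroRNA hairpins are the folded precursors from which the short regulatory RNAs are cut in the nucleus, and reads on them come from primary transcripts or hairpins, not from the mature RNAs. Of 622 hairpin entries 198 passed the filter. Since many passed only through the ribodepleted libraries, their counts describe those that were detectable: 156 were lower and 15 higher, with a median of -2.05. Over all tested genes 16.4% were lower and 18.8% higher. Over the 77 microRNA precursors whose means exceeded 1 TPM in both groups, the median was -0.81. The symbol pattern of the class also took in Mir17hg, a host transcript.

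Of the 198, 167 could be matched to a mature sequence in RefSeq (GRCm38.p6), and they were grouped by the seed, bases 2 to 8, which pairs with target mRNAs. The 5p forms of the family that shares the seed AAAGUGC and the 3p forms of the family with AUUGCAC are printed with the seed in capitals. They were picked because hairpins of the first family had 1 direction and those of the second had several. The choice was made with their values seen, from 22 seeds shared by 2 or more tested hairpins.
miR-17-5p: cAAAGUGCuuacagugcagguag
miR-20a-5p: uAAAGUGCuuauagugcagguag
miR-106a-5p: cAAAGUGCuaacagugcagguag
miR-93-5p: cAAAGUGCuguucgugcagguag
miR-92a-3p: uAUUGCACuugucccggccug
miR-25-3p: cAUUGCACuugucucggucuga

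All 6 tested hairpins with AAAGUGC (Mir17, Mir20a, Mir20b, Mir93, Mir106a and Mir106b) were lower in the polyA libraries, with a median of -2.30. Lower values were the rule among all tested hairpins, at 156 of 198 (78.8%), so this count says nothing about the seed. Of 4 with AUUGCAC, Mir92-2 was lower (-1.30), Mir363 higher (1.65), and Mir25 and Mir32 were not called. Mir363 and Mir92-2 lie next to each other on the X chromosome. Mir363 had 73.5, 66.8 and 70.9 against 25.4 and 18.7 scaled TPM, and it was the 1 of the 6 tested hairpins of that cluster that was higher, the other 5 being lower. Mir93 and Mir25 both lie within Mcm7, a replication helicase gene, and had 1.83, 1.80 and 0.81 against 9.14 and 13.4 (-2.31) and 38.7, 57.1 and 48.4 against 34 and 42.1 (0.32). The let-7 seed GAGGUAG was held by 7 tested hairpins, of which 6 were lower, again beside 78.8% of all tested hairpins.

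Hairpins that lie in clusters were also read together. The filter applies here too: a hairpin without reads in the polyA libraries could pass only by being high in the ribodepleted ones, so the counts by cluster describe detectable hairpins. On chromosome 2, 16 hairpins lie within Sfmbt2, a Polycomb-related gene, and all 16 were lower, with a median of -4.65, 11 of them with 0 reads in the polyA libraries. Mir669j among them had 70.7 and 79.2 scaled TPM in the ribodepleted libraries and was at least 330-fold lower against the floor of 3 reads. Sfmbt2 itself was lower too, at 4.48, 4.56 and 4.22 against 65.1 and 62.0 (-3.57).

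On chromosome 12, in the imprinted Dlk1-Dio3 region, 26 of 26 hairpins in one cluster and 9 of 10 in another were lower, with medians of -3.56 and -1.95. Of the long noncoding RNAs of the same region, Mirg (-1.21) and Rian (-0.93) were lower, while Meg3 had 24.9, 26.8 and 23.3 against 19.8 and 17.3 scaled TPM (0.41) and was not called. On chromosome 14 the host transcript Mir17hg had 104, 111 and 100 against 74.3 and 71.7 (0.52, not called), and all 4 tested hairpins within it were lower. Mir18 had 0.56, 0.82 and 0.25 against 67.0 and 58.3, and Mir19a had no read in the polyA libraries and 66.9 and 82.7 in the others, at least 223-fold lower. Mir290, which begins the ESC microRNA cluster on chromosome 7, had 22.4, 17.2 and 17.7 against 221 and 237 scaled TPM (-3.53).

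The hairpins with higher values in the polyA libraries were few. The largest difference was that of Mir196a-1, with 152 reads in the polyA libraries and 2 in the ribodepleted libraries, a ribodepleted to polyA ratio of 0.0527 with a 95% exact interval of 0.00632 to 0.194. Hairpins that lie in exons overlap their hosts, so their values cannot be told apart from those of the host transcript. The median was -0.90 over 12 in exons, -2.05 over 71 in introns and -2.44 over 72 with no annotated host.

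Long noncoding RNAs showed no common direction. Over the 306 tested genes of RefSeq type lncRNA the median was 0.02, with 57 (18.6%) higher and 69 (22.5%) lower, against 18.8% and 16.4% of all tested genes. Malat1, a nuclear RNA of speckles whose end is cut by ribonuclease P and folds into a triple helix in place of a poly(A) tail, had 166, 168 and 169 scaled TPM in the polyA libraries and 1188 and 1014 in the ribodepleted libraries, a difference of -2.71 ± 0.06 (SE; limma, adjusted p = 3.83e-09). Its neighbour Neat1, the scaffold of paraspeckles, went the other way, with 197, 224 and 182 against 79.2 and 61.6 (1.51). The long form of Neat1 ends in a triple helix like that of Malat1 and its short form is polyadenylated, and values per gene do not separate the forms.

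Of 13 tested members of the nuclear and imprinted list, 7 were lower and 2 higher, with a median of -0.68. Kcnq1ot1 and Nespas, unspliced or antisense RNAs of imprinted regions, were lower (-3.02 and -3.05), and so was H19 (-2.76). Kcnq1ot1 had 0.27, 0.30 and 0.25 against 10.1 and 8.56 scaled TPM. Tug1, Pvt1, Peg13 and Meg3 were not called. Peg13 had 1.92, 1.77 and 1.43 against 0.82 and 0.86, and it was called, at 0.63, without polyA replicate 3. Whether the counting used strand is not given in the sources used here, so antisense genes such as Nespas cannot be told apart from their partners. Genes with an annotated gene on the opposite strand made up 29.1% of the higher, 28.9% of the lower and 32.9% of the uncalled genes.

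Among coding genes other than histones the median was 0.01, with 2225 of 11650 higher and 1635 lower. Genes for the small proteins of the ribosome and the respiratory chain took a larger share in the polyA libraries. Shares of TPM add up to a fixed total. Histones (5.25%) and small and structured RNAs (15.7%) filled part of it in the ribodepleted libraries, which by itself lowers every other share there. The size of that part was not tested. Cytosolic ribosomal protein genes took 22.8% ± 0.12 of the TPM in the polyA libraries (SD, n = 3) and 12.9% ± 0.48 in the ribodepleted libraries (n = 2, exact permutation p = 0.2, the smallest possible). Of 77 tested, 47 were higher and 3 lower, against 18.8% higher over all genes, with a median of 0.79. The most abundant, Rplp1, had 9702, 9570 and 10264 against 5011 and 5511 scaled TPM (0.90), and Rps16 differed most (2639, 2661 and 2776 against 563 and 644, 2.16).

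The 3 that were lower were Rpl29 (73.1, 65.8 and 67.6 against 400 and 461, -2.62), Rps27 (-1.40) and Rpl30 (-1.02). Rps27 and Rpl30 had at most 11.5 scaled TPM in any library, and ribosomal protein genes have many near-identical processed copies among which reads can be lost, so these values are uncertain. The direction of the class held under quantile normalization, with a median of 0.49.

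Of 81 tested subunits of oxidative phosphorylation, 29 were higher (35.8%) and 0 lower (median 0.44). For this and the next 3 classes, the shares over all tested genes were 18.8% higher and 16.4% lower. Cox7c, a small subunit of cytochrome c oxidase, had 2398, 2433 and 2402 against 532 and 603 scaled TPM (2.09), and Cox6b2 differed most (3.01), while Atp5b, the catalytic subunit of the ATP synthase, was at 2004, 1998 and 2077 against 2121 and 2224 (-0.10). Mitochondrial ribosomal proteins (15 of 76 higher, 1 lower, median 0.14) and proteasome subunits (3 of 37 higher, 1 lower, median 0.07) lay nearer to all genes. Of 16 glycolysis enzymes 6 were higher and 0 lower. Gapdh had 4049, 3877 and 4108 against 1807 and 1860 (1.13) and Pgk1 824, 793 and 869 against 293 and 288 (1.51), whereas Actb, another gene often taken as a constant reference, was lower, at 2209, 2199 and 2158 against 5251 and 5492 (-1.29).

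Coding genes showed a gradient with transcript length, taken here as the length that the deposited values imply, once the replication-dependent histones, many of them short, were left out. The median difference was then 0.86 over 85 genes below 500 nt, 0.43 from 500 to 1000 nt, 0.21 from 1000 to 1500 nt, 0.00 from 2000 to 3000 nt, -0.11 from 4000 to 6000 nt and -0.29 over 489 genes from 8000 nt. Without ribosomal protein and respiratory chain genes the first bin still had a median of 0.75 (n = 53). With the 37 histone genes of that bin kept in, its median was 0.58 over 122 genes. With the histones left out, coding transcripts below 500 nt took 8.49% of the TPM of these coding genes in the polyA libraries and 4.81% in the ribodepleted libraries, and those from 500 to 1000 nt took 26.6% and 20.2%. Those from 3000 to 4000 nt took 8.97% and 11.3%. With the histones kept in, the share below 500 nt went the other way, at 8.50% in the polyA and 9.53% in the ribodepleted libraries. These are descriptions across genes, which share libraries and are not replicates, and kit and read length differ with the group.

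**Figure D5:**
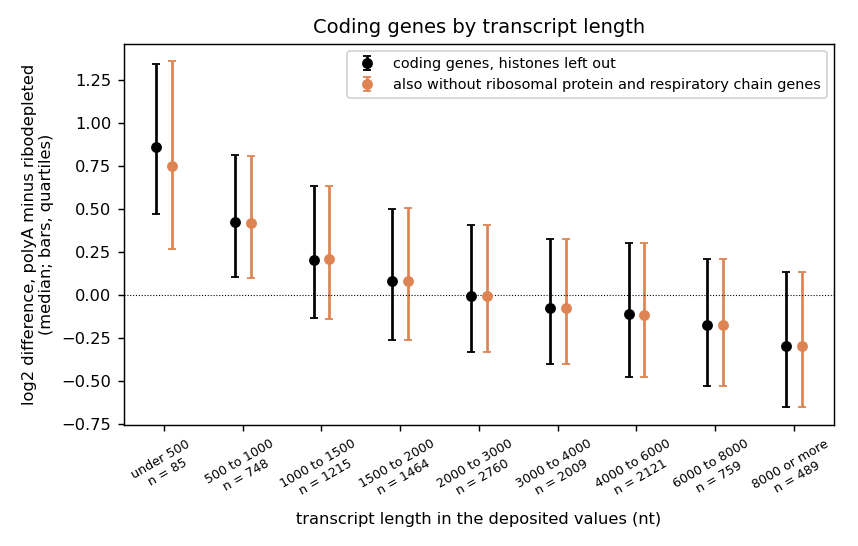
Median log2 difference (polyA minus ribodepleted, y axis) of coding genes other than replication-dependent histones, by bins of the transcript length implied by the deposited values, in nt (x axis), with the quartiles as bars and the same genes without ribosomal protein and respiratory chain genes beside them. The medians go down from 0.86 below 500 nt to -0.29 from 8000 nt.

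Zinc finger genes, the largest family of transcription factors, leaned to lower values in the polyA libraries. Of 318 tested, 101 (31.8%) were lower and 16 (5.03%) higher, with a median of -0.31. Their median lay below that of other coding genes of like length, at -0.36 against 0.01 from 2000 to 3000 nt, -0.35 against -0.07 from 3000 to 4000 nt and -0.35 against -0.22 from 6000 nt, as a description with no test. Zfp213 (5.18, 5.54 and 5.29 against 18.9 and 23.9 scaled TPM, -1.81) was the lowest and Zfp395 (2.15) the highest. Zfp57, which keeps imprints methylated, was higher (422, 442 and 404 against 151 and 152, 1.47) and Zfp42, the ESC marker known as Rex1, was lower (164, 158 and 172 against 524 and 509).

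The remaining lists are given beside 18.8% higher and 16.4% lower over all tested genes. Of 18 immediate-early genes 6 were higher and 3 lower (median -0.08), Ier3 (1.73) and Klf6 (-1.44) differing most. Of 14 SR splicing factors and Clk kinases 1, Srsf4, was higher (1.20), and the median was 0.34. In 9 of the 14 every polyA library lay above every ribodepleted library, against 43.2% of all tested genes. Of 19 tested collagens and laminins, 54 being in the files, 3 were higher and 6 lower, from Col5a1 (-1.11) to Col6a4 (2.38). Their median was -0.48, and in 13 every polyA library lay below every ribodepleted library, against 43.9% of all tested genes.

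Single genes with large differences outside these classes were found in both directions. 2310034O05Rik, an RNA of RefSeq type lncRNA, had 130, 144 and 136 scaled TPM in the polyA libraries and 0 reads in the ribodepleted libraries, at least 1477-fold higher against the floor of 3 reads. G530011O06Rik (4.83) and the calcium-binding protein gene S100a11 (262, 260 and 262 against 11.9 and 9.79, 4.47) followed. G530011O06Rik lies opposite Mid1, so its reads and those of Mid1 cannot be told apart without strand. In the other direction Klhl13, an X-linked ubiquitin ligase adaptor, had 30.8, 30.8 and 32.5 against 330 and 316 (-3.32), and Olig2, a neural transcription factor, had 4 reads over the polyA libraries and 19.9 and 18.2 scaled TPM in the ribodepleted libraries. Klhl13 and Olig2 were named after their values were seen.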

How the data were processed

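Each deposited file holds one TPM value per gene and library, which the authors computed from HTSeq counts of reads that STAR had placed on mm9 against a RefSeq transcriptome, after reads matching ribosomal or transfer RNA had been removed with Bowtie2 and reads trimmed with Trimmomatic. Versions and the strand setting are not given in the sources used here. Titles of the samples gave groups and replicate numbers. Size factors (median of ratios, tested genes) were applied to the TPM of the 5 libraries. With limma 3.58.1 (R 4.3.3), a linear model with a variance trend was then run on log2 of scaled TPM plus a pseudocount of 1 (two-sided, Benjamini-Hochberg over 12478 genes). The limits were a mean deposited TPM above 1, an adjusted p under 0.05 and a 1.5-fold limit. The fold and p limits are those of the study, which tested counts with another tool.

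TPM steps gave whole reads, within 0.02 of a read, for 100% of the 19869 genes above 0, apart from a factor per gene that no library can resolve. These reads describe totals of reads assigned to genes, floors (3 reads over a group) and 95% exact intervals, which cover counting error only. Chi-square per degree of freedom between replicates was at least 4.13, so no library was counted as a repeat.

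Coordinates, ends and overlaps came from mm9 with GENCODE M1, gene types and mature microRNAs from RefSeq. Named genes were the 2 most abundant and the most extreme called members of each class, the 3 most extreme called genes in each direction and a fixed list; others were added after their values were seen. Members, classes and lists were chosen with earlier results of these data known. The fit was tested on simulated data. Size factors, pseudocounts (0.1 and 5), filters, normalizations, a replicate block and leaving out each library were tried as alternatives.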

Additional observations from a re-analysis of the deposited data

How the results depend on the processing

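With 5 libraries in 2 groups that differ by experiment as well as by RNA selection, no setting can separate the 2. The reads recovered for genes in the ribodepleted libraries, 27261887 and 27466109, were fewer than in the polyA libraries, which limits genes near 1 TPM. Without a fold limit 5014 genes passed in the higher and 5089 in the lower direction, and 1497 and 1358 at a pseudocount of 5 TPM. Same-numbered libraries deviated from their groups with correlations of 0.095 and -0.097, so they share only a number, and a replicate block gave 2327 and 2030. The share of higher among called genes was 53.4%, and 52.1% to 63.1% under other scalings, the last being deposited TPM without size factors. The histone median moved from -7.91 to -7.83 with deposited TPM, -8.0 and -8.05 with means above 1 TPM in both groups and above 5 TPM, -8.75 and -6.43 with pseudocounts of 0.1 and 5, and -8.99 with voom on recovered reads. Box C/D snoRNAs moved from -2.29 to -1.81 (above 1 in both), -2.77, -1.77 (pseudocounts of 0.1 and 5) and -2.74 (voom), and box H/ACA snoRNAs from -2.49 to -2.68, -2.17 and -2.68 in the last 3 settings. MicroRNA hairpins moved from -2.05 to -0.81 (above 1 in both), -2.95 (above 5), -1.09 (no filter), -3.60, -0.92 (pseudocounts) and -3.37 (voom), with -2.37 to -1.90 on leaving out a library. The ribosomal protein median was 0.89 with deposited TPM and 0.49 with quantile normalization. As shares of reads the differences were -1.38 points for histones, -2.24 for small and structured RNAs and 3.14 for ribosomal proteins, against -5.24, -15.2 and 9.85 of the TPM. The median of all genes changed sign with deposited TPM (0.088), no filter (0.0040) and quantile normalization (0.033), and that of immediate-early genes with deposited TPM (0.018) and means above 5 TPM (0.29), and that of lineage markers (-0.034) with deposited TPM (0.050) and without ribodepleted replicate 2 (0.12). The share of coding TPM below 500 nt changed direction when histones were kept in, a choice made after seeing the data. The cause was not tested beyond the construction of each setting. Of 132 named genes, 37 had another call under at least 1 of 17 alternatives, and none changed direction in a call. Calls were lost for Pou5f1 with quantile normalization (0.37) and a replicate block (0.57), for Gas5 and Cdr2l with deposited TPM (-0.51 and -0.54), and for Klf4, Thy1, Rpl30 and Col5a1 with a pseudocount of 5 TPM (0.57, 0.37, -0.49 and -0.56).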
